A study of Mus musculus with 38 samples.

Results

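Meningeal and stromal fibroblast genes are described here through 10 genes, Pdgfra, Dcn, Lum, Ogn, Thy1, Fbln2, Svep1, Foxc1, Tbx18 and Slc26a7, of 57126 genes in the largest tables of the series. The genes were chosen from measured levels of these same libraries, with earlier results known, and the contrast behind the choice is not recorded, so their levels across experiments are given as a description with no test. The tests within an experiment were fitted over all of its genes and are read beside the share of all tested genes that changed.

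Exosomes are vesicles shed by cells, and the question of the study was whether those from insulin resistant fat cells make triple-negative breast cancer more aggressive. It used 4T1, a mouse mammary adenocarcinoma line, and 38 libraries in 4 experiments and 10 groups. In the culture experiment, there were 3 libraries each of untreated 4T1 cells and of cells kept for 72 h with exosomes from insulin sensitive (IS) or from insulin resistant (IR) adipocytes. The adipocytes were differentiated from 3T3-L1, a mouse line of fat cell precursors. The brain clonogenic assay, in which cells from brain are grown as colonies, had 5 untreated control, 5 IS and 5 IR libraries. The primary tumours had 4 untreated control and 5 IR libraries. A further experiment had 2 libraries of 4T1 cells titled as given a scrambled microRNA and 3 titled as given miR-145a-3p, but the library names point the other way for all 5, so these groups are named by their titles. The labels give the cell line as 4T1 for every group, and the titles call every library a biological replicate. They name no mouse strain, age or number of animals. The p-values thus rest on the spread between libraries, which may be partly technical.

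Fibroblasts make the collagens and proteoglycans of connective tissue. In the head, the meninges, the membranes around the brain, hold several layers of fibroblasts that arise from neural crest and mesoderm and that need the transcription factor Foxc1 to form. Fibroblasts in many organs carry the growth factor receptor Pdgfra and the small proteoglycan decorin, the product of Dcn, and the tumour stroma contains fibroblasts that are remodelled next to cancer cells.

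Levels are in CPM, the counts of a gene relative to those of all tested genes after scaling by library, and total counts ran from 8455404 to 13272580 per library in the culture and brain tables and from 17392862 to 32637504 in the other tables. The labelled cell type was checked on epithelial genes. Epcam, which joins epithelial cells, was at 179 ± 12.2 CPM in untreated 4T1 cells (SD, n = 3), at 392 ± 89.3 CPM in control tumours (n = 4) and at 2.00 ± 0.983 CPM in brain controls (n = 5). Krt8 and Krt18, the keratins of simple epithelia, were at 26.1 and 95.1 CPM in brain controls against 1214 and 894 CPM in untreated 4T1 cells, and Cdh1, E-cadherin, was at 3.13 against 453 CPM. The summed level of 12 epithelial genes was 121 to 258 CPM over the 15 brain libraries and 2898 to 3896 CPM over the 9 culture libraries. The brain libraries are therefore called by their assay and not by the cell line.

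The promoters of 3 of the genes are shown because the results turn on them in different ways. Svep1 changed in the brain cultures, Fbln2 differed in cultures of both kinds, and Foxc1 was present in every library. Each window is the 250 bases before the gene's start in RefSeq on build GRCm38.p6, on the gene's strand and 5′ to 3′. Of the 10 genes, 6 had a window. Capitals mark a TATA box, TATAAA on either strand.
Svep1, chr4:58206597-58206846, minus strand: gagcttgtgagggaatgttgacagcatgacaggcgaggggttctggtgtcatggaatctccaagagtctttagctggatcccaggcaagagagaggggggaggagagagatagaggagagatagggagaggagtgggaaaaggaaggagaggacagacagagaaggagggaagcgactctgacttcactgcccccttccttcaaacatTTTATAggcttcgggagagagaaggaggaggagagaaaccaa
Fbln2, chr6:91212514-91212763, plus strand: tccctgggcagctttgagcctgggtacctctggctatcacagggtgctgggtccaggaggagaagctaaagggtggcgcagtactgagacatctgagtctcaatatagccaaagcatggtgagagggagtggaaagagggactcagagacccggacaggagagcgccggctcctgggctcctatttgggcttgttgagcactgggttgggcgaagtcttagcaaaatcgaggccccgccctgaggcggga
Foxc1, chr13:31806396-31806645, plus strand: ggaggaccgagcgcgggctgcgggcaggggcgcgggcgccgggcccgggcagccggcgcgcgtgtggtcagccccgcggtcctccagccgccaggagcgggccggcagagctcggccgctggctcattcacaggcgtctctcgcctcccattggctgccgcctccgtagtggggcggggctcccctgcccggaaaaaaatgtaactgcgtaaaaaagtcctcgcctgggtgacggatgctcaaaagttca
The Svep1 window held a match to the TATA box letters on the opposite strand, with its first letter 42 bases before the start. The Ogn window, not shown, also held matches, on the same strand 227 and on the opposite strand 229 bases before the start. The motif was present in 12.4% of 32851 windows of this length. The forkhead core TGTTTAC, in 3.17% of all windows, and the T-box core GGTGTGA, in 3.33%, were also searched on both strands, with no overlap between the 3 motifs, and were not in the 3 windows. The Foxc1 window was 70.8% G and C with 29 CpG dinucleotides, while the Svep1 window was 52.4% G and C with 3 CpG dinucleotides and the Fbln2 window 58.8% with 8.

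Across the experiments the genes fell into a set seen in every table and a set at or near 0 in the cultured line. Fbln2, Pdgfra and Foxc1 were above 5 CPM in all 38 libraries. Fbln2, fibulin 2, an extracellular matrix protein that binds elastic fibres and basement membranes, was at 598 ± 9.13 CPM in untreated 4T1 cells, 136 ± 19.2 CPM in brain controls and 358 ± 40.6 CPM in control tumours. Foxc1, a forkhead transcription factor, was at 94.2 CPM in untreated 4T1 cells, 35.8 CPM in brain controls and 59.6 CPM in control tumours, and Pdgfra was at 13.2, 28.1 and 82.9 CPM. These 3 genes were thus present in the cultured tumour line itself, and in brain or tumour libraries the share from fibroblasts and from other cells cannot be told apart. In bulk samples, fewer cells of a type and less RNA per cell cannot be told apart.

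The other genes were at or near 0 in cultured 4T1 cells. Lum, Thy1, Svep1, Tbx18 and Slc26a7 had 0 counts in all 9 culture libraries and in all 5 libraries of the microRNA experiment. A count of 0 over the 9 culture libraries allows a level of up to 0.0312 CPM, and over the 5 others of up to 0.0221 CPM, for counting error only. Dcn had 7 counts in the 9 culture libraries together and Ogn had 4. In the brain cultures, Dcn was at 66.5 to 155 CPM, Ogn at 103 to 154 CPM, Tbx18 was at 22.0 to 40.0 CPM and Svep1 at 3.1 to 51.1 CPM.

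**Figure D1:**
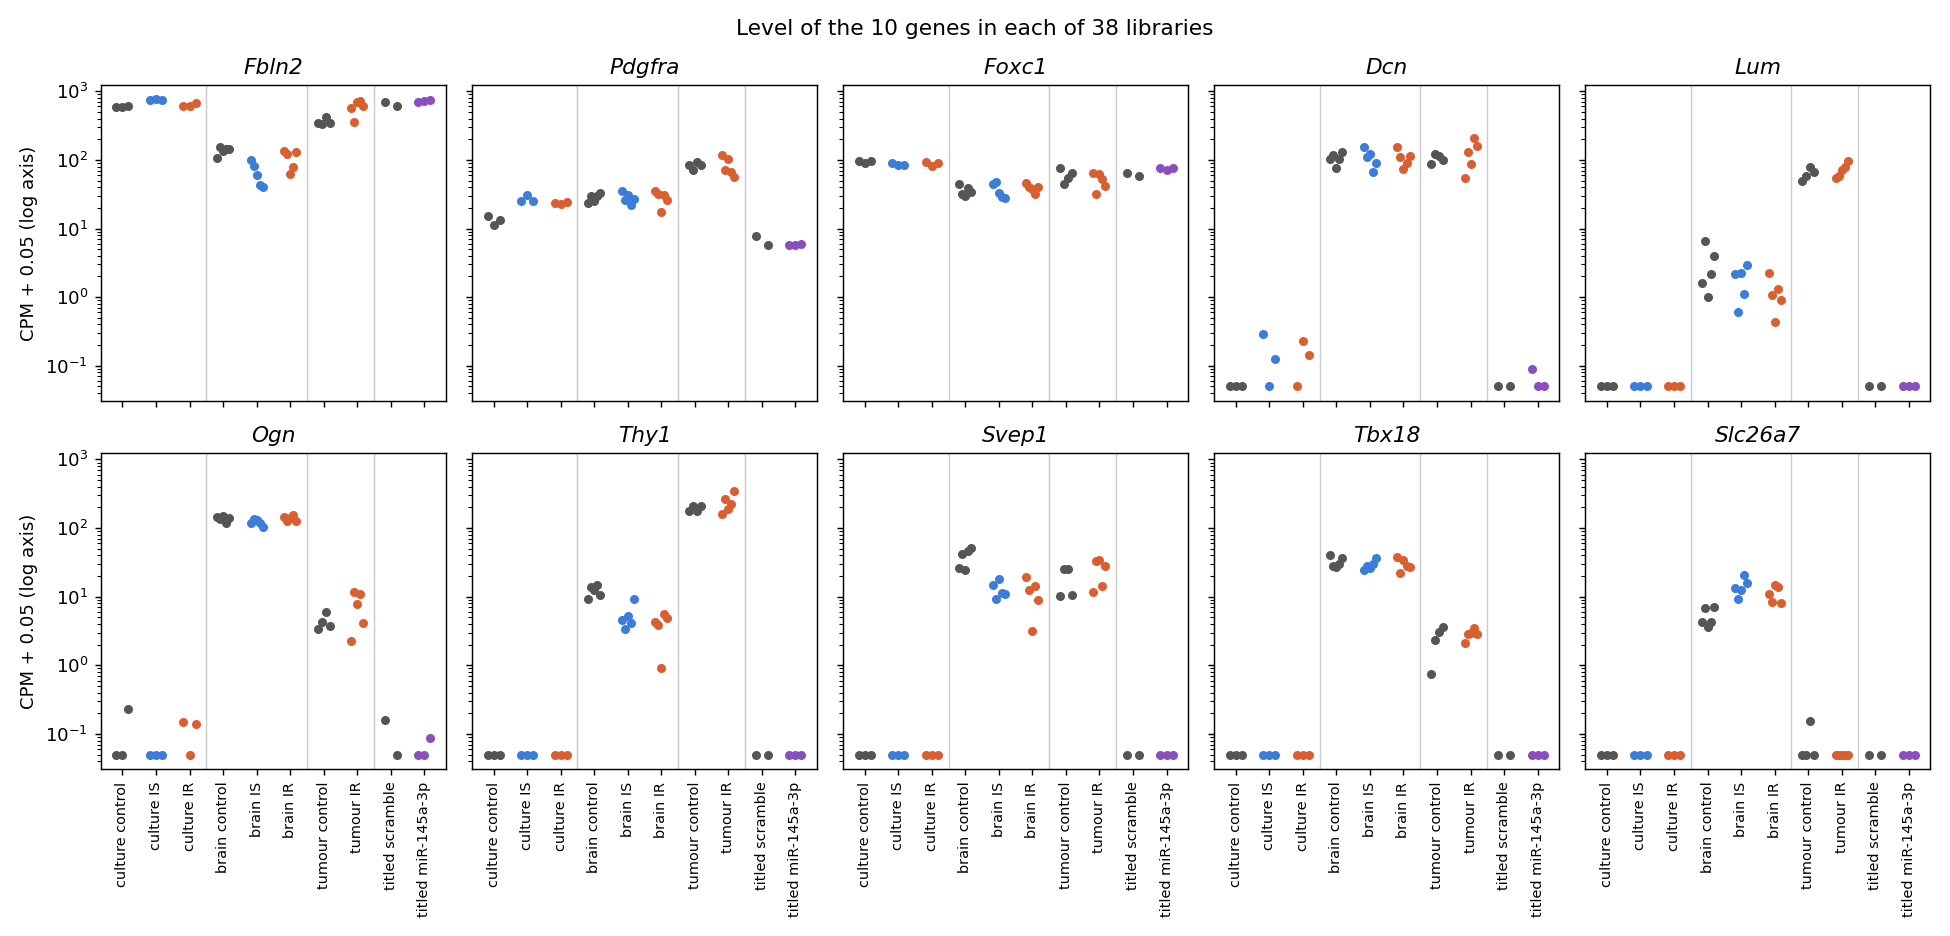
Level of each of the 10 genes in CPM plus 0.05 (vertical log axis) in each library (points), by group on the horizontal axis, with grey lines between the 4 experiments. Fbln2, Pdgfra and Foxc1 are present in all 38 libraries, the other 7 lie at or near the bottom in the cultured cells, and Ogn, Tbx18 and Slc26a7 are higher in brain than in tumours while Lum and Thy1 are lower in brain than in tumours.

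Of the members at or near 0 in cultured 4T1 cells, 5 differed in level between brain controls and control tumours. Ogn, osteoglycin, a small leucine-rich proteoglycan, was at 117 to 148 CPM in the brain controls and 3.39 to 5.96 CPM in the control tumours. Tbx18, a T-box transcription factor of mural cells and meningeal fibroblasts, was at 26.7 to 40.0 CPM in brain controls and 0.71 to 3.55 CPM in control tumours. Slc26a7, an anion exchanger, was at 3.51 to 7.13 CPM in brain controls and had 0 to 2 counts in the tumours. Lum, lumican, another small leucine-rich proteoglycan, went the other way, with 0.958 to 6.63 CPM in brain controls and 48.9 to 79.8 CPM in control tumours. Thy1, a surface protein of fibroblasts, T cells and neurons, was at 9.07 to 14.6 CPM in brain controls and 174 to 206 CPM in control tumours. For each of these 5 genes the brain and tumour controls did not overlap. The controls of Pdgfra did not overlap either, at 23.3 to 32.6 CPM in brain and 70.8 to 93.2 CPM in tumours. Nor did those of Fbln2, at 105 to 155 CPM in brain and 329 to 418 CPM in tumours. The share of all genes that do not overlap between brain and tumours was not computed, so the lack of overlap cannot be read as particular to these genes. The tables were quantified separately, the brain table with RSEM and the tumour table with salmon, and no test was made between them.

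Dcn did not follow that split. It was at 107 ± 20.2 CPM in brain controls and 105 ± 14.4 CPM in control tumours. Dcn and Lum are neighbouring genes on chromosome 10, and the ratio of their CPM was 17.6 to 199 over the 15 brain libraries with a median of 71.4, and 0.981 to 2.63 over the 9 tumours with a median of 1.65. The ratio of Ogn to Dcn was 0.774 to 1.92 in brain and 0.0264 to 0.0899 in tumours. Each brain library lay apart from each tumour library for both ratios. The brain libraries are clonogenic cultures, so this also sets cultures against primary tumours.

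Levels between genes were compared per kilobase of the longest coding transcript. In brain controls the order in CPM per kilobase was Dcn at 60.6, Ogn at 53.5, Fbln2 at 28.4, Thy1 at 6.96, Tbx18 at 6.88, Foxc1 at 6.12, Pdgfra at 4.11, Svep1 at 3.26, Lum at 1.24 and Slc26a7 at 1.01. Dcn and Ogn overlapped between libraries, as did Thy1 with Tbx18, Tbx18 with Foxc1, Pdgfra with Svep1, Svep1 with Lum, and Lum with Slc26a7. In control tumours the order was Thy1 at 110, Fbln2 at 74.8, Dcn at 59.7, Lum at 25.7, Pdgfra at 12.1, Foxc1 at 10.2, Ogn at 1.68, Svep1 at 1.54, Tbx18 at 0.51 and Slc26a7 at 0.0052. There, Pdgfra overlapped with Foxc1 and Ogn with Svep1, and the other neighbours lay apart.

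Other genes of these cell types were summed by list. Of the meningeal list, Zic1, a transcription factor of the meninges, was at 69.4 ± 4.19 CPM in brain controls and at 0 CPM in untreated 4T1 cells and control tumours. Slc4a10, a bicarbonate transporter, was at 654 CPM and Cemip, a hyaluronan-degrading protein, at 570 CPM in brain controls, against 0.0371 and 9.52 CPM in control tumours. The summed level of the 24 meningeal genes was 1487 to 2166 CPM over the brain libraries and 166 to 337 CPM over the tumours. For the 20 other fibroblast genes, led by the collagens Col1a1 and Col1a2, the sum was 1481 to 2214 CPM in brain and 5551 to 15839 CPM in tumours. Of 3 further lists, 2 were higher in brain controls than in control tumours and 1 overlapped. The activated fibroblast genes summed to 1227 to 1395 CPM in brain controls and 820 to 1194 CPM in control tumours. The other small leucine-rich proteoglycan genes summed to 632 to 891 and 281 to 425 CPM, a difference opposite to that of Lum. In brain controls most of this sum came from 1 gene, Bgn, so it does not describe the family gene by gene. The other fibulin genes summed to 215 to 239.7 and 221 to 269 CPM. These 3 comparisons are of controls only. In the IR groups, the activated fibroblast genes summed to 871 to 1302 CPM in brain and 1451 to 3061 CPM in tumours. The proteoglycan genes summed to 624 to 702 and 439 to 1005 CPM there, so neither difference between the controls was kept.

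In the brain cultures, the comparisons of the IS and the IR group with control asked whether these cultures differ in the genes. Both share the same 5 control libraries. Svep1 and Thy1 fell in both groups, Fbln2 fell in the IS group, and Slc26a7 rose in both. The proteoglycan genes Dcn and Ogn, the receptor gene Pdgfra and the transcription factor genes Foxc1 and Tbx18 did not pass the test in either. Of the 10 genes, 9 reached the filter on low counts and Lum did not. Of these 9, 1 was higher and 2 were lower in IR, while over all 12924 genes tested 6.45% were higher and 5.27% lower. In IS, 1 was higher and 3 were lower, against 3.37% and 3.1% of all genes tested. The median log2 change of the 9 genes was 0.0016 in IR and -0.14 in IS, and that of all genes tested 0.0018 and -0.0014. Since the genes were chosen with results known, these counts are descriptions.

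Svep1 encodes a large secreted adhesion protein that binds integrins. It was at 26.4, 42.1, 24.4, 45.8 and 51.1 CPM in controls 1 to 5, at 14.5, 9.23, 18.1, 11.3 and 11 CPM in IS 1 to 5 and at 19.3, 12.4, 3.1, 14.1 and 8.98 CPM in IR 1 to 5. Every control was above every IS and every IR library, and the lowest library was IR 3. The level was 2.96-fold lower in IS (log2 -1.57 ± 0.33, SE, edgeR quasi-likelihood test with Benjamini-Hochberg adjustment, adjusted p = 0.00983) and 3.28-fold lower in IR (log2 -1.71 ± 0.33, adjusted p = 0.00367). Under 17 alternative analyses each, the adjusted p was at most 0.0309 for IS and 0.0124 for IR.

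Thy1 was at 9.07, 13.8, 12.3, 14.6 and 10.6 CPM in the controls, at 4.56, 3.36, 5.12, 4.04 and 9.20 CPM in IS and at 4.26, 3.85, 0.873, 5.51 and 4.92 CPM in IR. IS 5 lay inside the control range, and the IR libraries all lay below the controls. In IR the gene was 3.12-fold lower (log2 -1.64 ± 0.34, edgeR adjusted p = 0.00561, at most 0.0175 under 17 alternatives). In IS it was 2.27-fold lower (log2 -1.19 ± 0.33, edgeR adjusted p = 0.0397). That call was lost without control 2, 3, 4 or 5 (adjusted p = 0.0886, 0.0782, 0.0912 and 0.0628) and without IS 1, 2, 3 or 4 (adjusted p = 0.0672, 0.0882, 0.0743 and 0.0821). The range over 17 alternatives was 0.0075 to 0.0912.

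Thy1 is also a marker of neurons and T cells. The summed level of 10 neuron genes was 52.2 to 68.6 CPM in controls, 40.9 to 49.1 CPM in IS and 36.3 to 51.1 CPM in IR, so the controls lay above the other libraries. Of the 3 neuron genes tested, Map2 fell in IR (log2 -0.73, edgeR adjusted p = 0.018) and Stmn2 in IS (log2 -1.12, adjusted p = 0.0207). The part of neurons in the Thy1 result was not tested. The 11 lymphocyte genes summed to at most 2.56 CPM in any brain library, with Cd3d and Ms4a1 at 0 in all 15.

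Fbln2 passed the test in IS. It was at 105, 155, 133, 144 and 143 CPM in the controls, at 101, 80.8, 61.1, 43.1 and 40.6 CPM in IS and at 133, 123, 63.2, 78.9 and 129 CPM in IR. All IS libraries lay below the lowest control, and 3 of the 5 IR libraries lay within the control range. The gene was 2.08-fold lower in IS (log2 -1.06 ± 0.24, edgeR adjusted p = 0.0171, at most 0.0441 under 17 alternatives), while the IR change did not pass (log2 -0.37 ± 0.24, adjusted p = 0.362). The difference of IR from IS did not pass either (log2 0.69 ± 0.24, unadjusted p = 0.0109, adjusted p = 0.141).

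Slc26a7 moved in the opposite direction. It was at 4.23, 6.87, 3.51, 4.28 and 7.13 CPM in the controls, at 13.1, 9.33, 12.4, 20.4 and 15.9 CPM in IS and at 10.9, 8.21, 14.5, 13.8 and 7.91 CPM in IR. All 10 IS and IR libraries lay above all 5 controls. The rise was 2.72-fold in IS (log2 1.45 ± 0.25, edgeR adjusted p = 0.00272) and 2.12-fold in IR (log2 1.08 ± 0.25, adjusted p = 0.0116), with adjusted p of at most 0.0112 and 0.0353 under the alternatives.

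**Figure D2:**
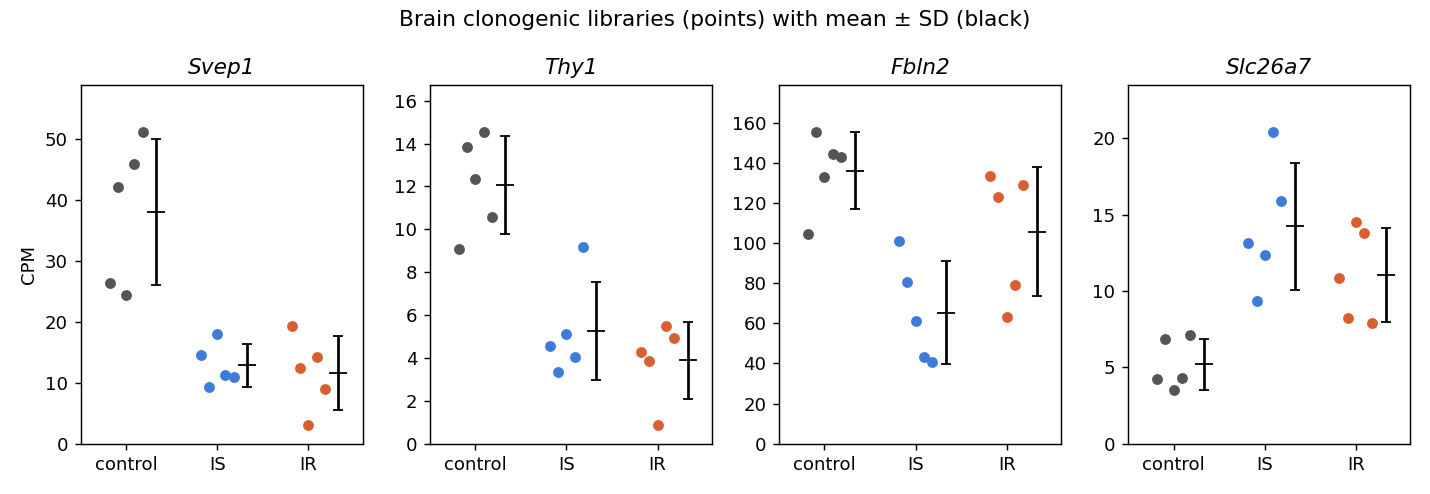
CPM of Svep1, Thy1, Fbln2 and Slc26a7 (vertical axes, from 0) in the brain clonogenic libraries, with points for the 5 libraries of each group and black bars for the mean ± SD. The controls lie above the IS and IR libraries for Svep1 and below them for Slc26a7, while for Fbln2 only the IS libraries lie apart from the controls.

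Of the remaining members, 5 did not pass the test and Lum was not tested. Dcn was at 77.3 to 132 CPM in controls, 66.5 to 153 CPM in IS and 74.1 to 155 CPM in IR, with log2 changes of 0.031 ± 0.21 and 0.027 ± 0.21. Ogn was at 103 to 136 CPM in IS and 127 to 154 CPM in IR, with log2 changes of -0.18 ± 0.086 (edgeR adjusted p = 0.239) and 0.017 ± 0.086. Pdgfra was at 17.4 to 35.6 CPM over the 15 libraries. Its group means were 28.1, 28.2 and 28.1 CPM. Foxc1 was at 28.2 to 47.6 CPM and Tbx18 at 22.0 to 40.0 CPM, and their log2 changes lay between -0.14 and 0.13, with SE of at most 0.16. Lum, below the filter, was at 3.03 ± 2.29 CPM in controls, 1.77 ± 0.935 CPM in IS and 1.14 ± 0.661 CPM in IR (SD, n = 5 each), and the groups overlapped.

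In the direct comparison of IR with IS, 0 of the 9 genes were called by edgeR, beside 0.0232% of all genes higher and 0.0232% lower. An unadjusted p under 0.05 was found for 2 of the 9, Fbln2 and Ogn, and for 2344 of the 12924 genes, and DESeq2 also called 0 of the 9. The adjusted p was 0.141 for Fbln2 and 0.242 for Ogn. The SE of a log2 difference was 0.086 to 0.35, the smallest for Ogn and the largest for Thy1.

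**Figure D3:**
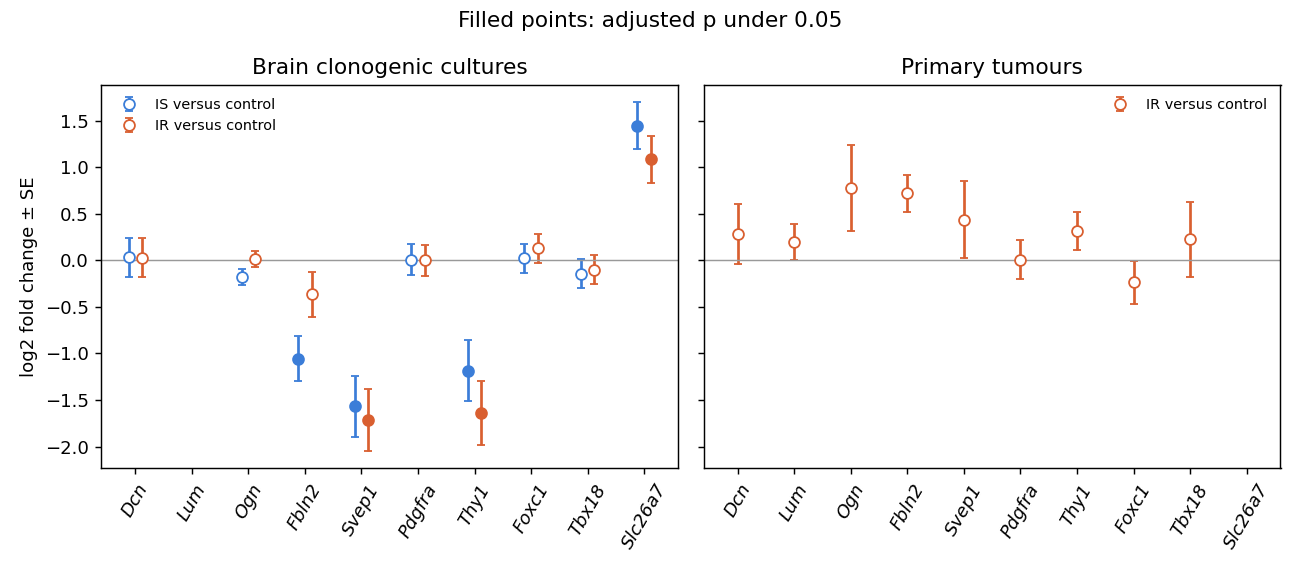
Log2 fold change against control with its SE (vertical axis) for each gene (horizontal axis) in brain cultures (left, IS in blue and IR in orange) and primary tumours (right), with filled points for an edgeR adjusted p under 0.05. Svep1, Thy1 and Slc26a7 are filled for both brain groups and Fbln2 for IS alone, and no point is filled in the tumours. Genes that did not reach the filter, Lum in brain and Slc26a7 in tumours, have no point.

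The lists of other meningeal and fibroblast genes held calls in both directions in the brain cultures, to be read beside 6.45% higher and 5.27% lower of all genes in IR and 3.37% and 3.1% in IS. Of 20 meningeal genes tested, 4 rose and 3 fell in IR, and 1 rose and 3 fell in IS. Ptgds, the prostaglandin D synthase of the arachnoid, was 2.2-fold higher in IR and 2.28-fold higher in IS, Ranbp3l was 3.15-fold higher in IR, and Slc4a10 and Cemip were lower in both by 1.63- to 1.73-fold. Of 17 other fibroblast genes tested, 1 rose and 2 fell in IR, and 1 rose and 3 fell in IS. Fbn1, fibrillin 1 of the elastic microfibrils, was 1.59-fold lower in IR and 1.86-fold lower in IS, Col1a2 was 1.72-fold lower in IR and Mmp2, a matrix protease, 1.62-fold lower in IS. The gene that rose was Cd34, which endothelial cells also carry, by 8.11-fold in IR and 3.49-fold in IS.

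Relatives of the members were examined by family, and a single call in a list this short is no more than a description beside the same shares of all genes. Of 7 other small leucine-rich proteoglycan genes tested beside Dcn, Lum and Ogn, 0 rose and 1 fell in IR, Fmod, fibromodulin (log2 -0.96, edgeR adjusted p = 0.0155), and none was called in IS. Bgn, biglycan, was at 510 ± 77.3 CPM in controls and 520 ± 23.1 CPM in IR. Of 6 other fibulin genes tested, Fbln1 was the 1 called, higher by 1.72-fold in IR and 1.73-fold in IS. The direction in IS was opposite to that of Fbln2, which passed the test in IS alone. Among 5 genes of the PDGF system, the ligand gene Pdgfc fell in IR and IS (log2 -0.37 and -0.41, adjusted p = 0.00768 and 0.00655) and Pdgfb rose in IR (log2 0.40, adjusted p = 0.0424). Of 6 activated fibroblast genes tested, 1 fell in IR, Cthrc1 (log2 -0.80, adjusted p = 0.0259), and none was called in IS.

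Markers of other cell types moved with the same groups. The 12 endothelial genes summed to 174 to 246 CPM in controls, 243 to 999 CPM in IS and 608 to 1293 CPM in IR, with 11 of 12 higher in IR and 7 of 12 higher in IS. The 12 microglia and macrophage genes summed to 449 to 645, 212 to 873 and 107 to 357 CPM, with 4 of 6 tested lower in IR and 0 called in IS. Of 10 neural crest and myelinating glia genes tested, 4 rose and 1 fell in IR and 3 rose in IS, and of 9 astrocyte genes 3 and 4 rose. Of 11 pericyte and smooth muscle genes tested, 1 rose and 1 fell in IR and 0 were called in IS, and of 7 genes of oligodendrocyte precursors, cells that carry Pdgfra, 0 were called in either. The part of these cell types in the changes of Svep1, Thy1, Fbln2 and Slc26a7 was not tested.

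Within the brain groups some members varied together. Over the 15 libraries, each centred on its group, Pdgfra and Svep1 had a Pearson r of 0.91 and a Spearman rho of 0.83 (permutation test within groups, adjusted p = 0.0108 and 0.0302 over 36 pairs of genes, unadjusted 0.0003 and 0.00084). Without the 2 libraries farthest from the median of Pdgfra, r was 0.88. Pdgfra and Dcn had r = 0.80 and rho = 0.76 (permutation adjusted p = 0.0283 and 0.0392, unadjusted 0.00157 and 0.00327, r = 0.69 without 2 libraries), and Dcn and Fbln2 r = 0.79 and rho = 0.80 (permutation adjusted p = 0.0294 and 0.0392, unadjusted 0.00245 and 0.00258, r = 0.69 without 2 libraries). The other 33 pairs did not pass for both measures. The 2 values of a point come from 1 library, with its depth and cell makeup. The share of pairs of other genes that vary together as closely was not computed. Since the members were chosen from these same libraries, the correlations are descriptions and cannot be read as particular to them. Pdgfra thus varied with Svep1 between libraries of a group but had the same mean in all 3 groups, where the Svep1 means were 38, 12.8 and 11.6 CPM.

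**Figure D4:**
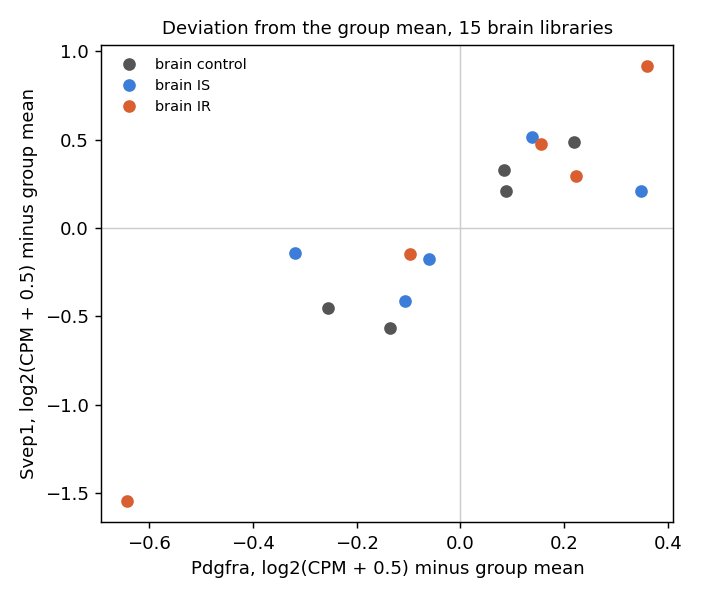
Deviation of log2(CPM + 0.5) from the group mean for Pdgfra (horizontal) and Svep1 (vertical) in the 15 brain libraries, coloured by group. The points rise together (r = 0.91), and the IR library at the lower left, IR 3, has the lowest Pdgfra and Svep1 levels.

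By the highest correlation with the mean profile of the 9 members over the 15 brain libraries, the genes most like them among 9590 screened included Serpinb6b at r = 0.90, Rhoj at 0.89, Cemip at 0.88 and Col12a1 at 0.87. Over the 9 tumours, with 10074 genes screened, they were Fst at 0.96 and Ccdc80, Col14a1, Adgra2 and Cdr2l, all at 0.94. Unlike the pairs above, each gene was centred over all libraries and not within groups, so differences between groups enter these values. Both are descriptions, and the gene lists did not share a gene.

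In cultured 4T1 cells the comparisons with untreated cells asked what the exosomes change in the tumour line. Pdgfra rose with both kinds of exosome and Fbln2 with IS exosomes. Pdgfra was at 15.1, 11.3 and 13.2 CPM in untreated cells, at 25.2, 31.0 and 25.5 CPM with IS exosomes and at 23.7, 22.4 and 24.3 CPM with IR exosomes. The untreated libraries lay below all 6 exosome libraries. The rise was 2.04-fold with IS (log2 1.03 ± 0.11, edgeR adjusted p = 6.68e-06) and 1.77-fold with IR (log2 0.82 ± 0.11, adjusted p = 8.66e-05), and IR differed from IS by log2 -0.20 ± 0.10 (adjusted p = 0.242).

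Fbln2 was at 592, 594 and 609 CPM in untreated cells, at 754, 763 and 754 CPM with IS exosomes and at 607, 612 and 669 CPM with IR exosomes. The IS libraries lay above the other 6. Fbln2 was 1.26-fold higher with IS than untreated (log2 0.34 ± 0.037, edgeR adjusted p = 8.63e-06) and 1.2-fold lower with IR than with IS (log2 -0.27 ± 0.037, adjusted p = 0.000652), while IR did not differ from untreated past the threshold (log2 0.073 ± 0.037, adjusted p = 0.227). Foxc1 was at 90.6 to 96.2 CPM untreated, 84.2 to 90.7 CPM with IS and 81.1 to 92.5 CPM with IR and was not called. These calls held in all 13 alternatives for each gene.

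**Figure D5:**
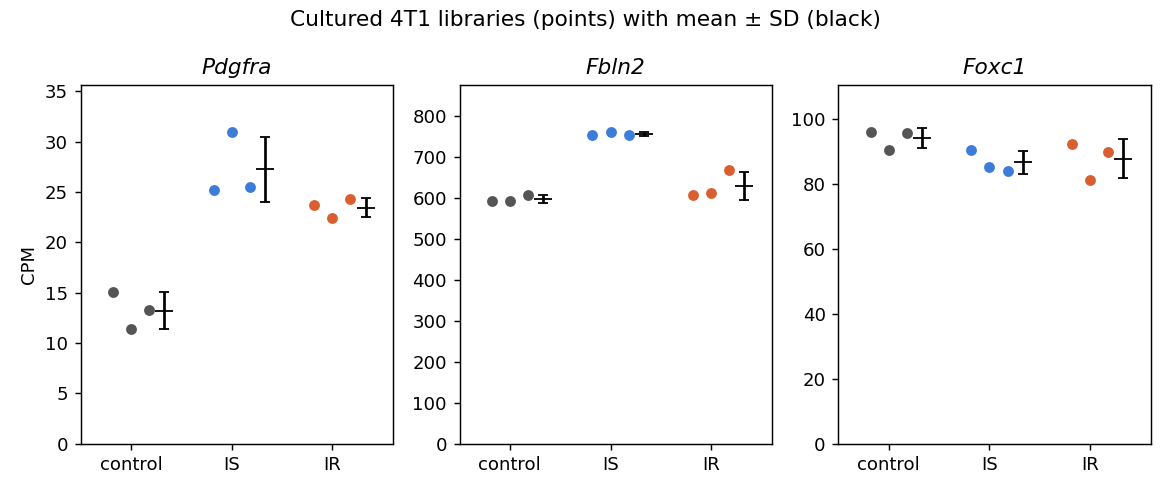
CPM of Pdgfra, Fbln2 and Foxc1 (vertical axes, from 0) in the 9 cultured 4T1 libraries, with points for the 3 libraries of each group and black bars for the mean ± SD. Untreated cells lie below all exosome libraries for Pdgfra, IS libraries lie above all others for Fbln2, and the groups overlap for Foxc1.

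Of the 3 members tested in culture, 2 rose with IS and 1 with IR, beside 9.97% higher and 9.32% lower of 10888 genes in IS and 6.67% higher and 6.9% lower in IR. In IR against IS, 1 of 3 was lower, beside 2.82% higher and 3.45% lower. The median log2 change of the 3 genes was 0.34 in IS, 0.073 in IR and -0.20 in IR against IS, and over all genes tested 0.0012, 0.0038 and 0.0021. Of the 4 other fibroblast genes tested, Col5a1 and Col6a1 rose with IS (1.49- and 1.83-fold) and with IR (1.16- and 1.44-fold), and Pcolce fell with IR. Of 3 activated fibroblast genes tested, 0 rose, 2 fell with IS and 3 fell with IR: Postn, periostin of the matrix (3- and 4.56-fold lower with IS and IR), Inhba (1.41- and 1.37-fold), and Tnc, tenascin C, with IR (1.36-fold). Among the ligands of the PDGF system, Pdgfb fell with IS and IR (1.92- and 2.3-fold), Pdgfa fell (1.14- and 1.19-fold) and Pdgfc rose (1.53- and 1.5-fold). The 10 adipocyte genes summed to at most 0.93 CPM in any culture library, and Lum and Thy1 were at 0 counts. Of the 12 epithelial genes, 9 fell with IS and 7 with IR, and their part in the Pdgfra and Fbln2 values was not tested.

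In primary tumours the comparison of IR with control asked whether the stroma genes differ. None of the 9 members tested was called by edgeR, beside 0% higher and 0% lower of 12962 genes, and 991 genes had an unadjusted p under 0.05. Of the members, 1 did, Fbln2. DESeq2 called 1 member, Fbln2, and 124 genes in all. Fbln2 was at 345, 329, 418 and 340 CPM in controls 1 to 4 and at 567, 358, 691, 728 and 600 CPM in IR 1 to 5. The IR libraries lay above the controls except IR 2, which lay within their range. The difference was 1.64-fold (log2 0.72 ± 0.19, edgeR adjusted p = 0.466, DESeq2 adjusted p = 0.0305, range 0.0305 to 1 over 15 alternatives).

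The groups overlapped for all other members. Dcn was at 87.8, 120, 113 and 98.7 CPM in controls and at 54.2, 131, 88.1, 209 and 157 CPM in IR. Lum was at 48.9 to 79.8 and 55.2 to 95.2 CPM, Ogn at 3.39 to 5.96 and 2.19 to 11.8 CPM, and Svep1 at 10.1 to 25.4 and 11.6 to 34.7 CPM. The IR group spread more widely than the controls for Dcn and Ogn, and also for Pdgfra, Thy1 and Fbln2, but less widely for Tbx18. Pdgfra was at 70.8 to 93.2 and 56.1 to 118 CPM, with a log2 difference of 0.0050 ± 0.21, and Foxc1 at 43.9 to 75.5 and 31.5 to 63.9 CPM. Tbx18 was at 0.71 to 3.55 and 2.10 to 3.40 CPM. The median log2 difference of the 9 genes was 0.28 and that of all genes tested 0.0065. The lists of related genes also held 0 calls. The activated fibroblast genes summed to 820 to 1194 CPM in controls and 1451 to 3061 CPM in IR, and the other small leucine-rich proteoglycan genes to 281 to 425 and 439 to 1005 CPM, with no overlap and with median log2 differences of 0.98 over 8 genes and 1.00 over 8 genes. The other fibroblast genes overlapped, at 5551 to 8982 and 8260 to 15839 CPM, with a median of 0.63 over 20 genes. The sums were not tested, and the share of all genes that lie apart in this way was not computed. Fap was counted in the activated and in the other fibroblast list, so these lists are not independent.

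Thy1 was at 177, 206, 174 and 206 CPM in control tumours and at 159, 266, 191, 225 and 346 CPM in IR tumours (log2 0.31 ± 0.21, edgeR adjusted p = 0.813). The 11 lymphocyte genes summed to 526 CPM in control 2, 623 CPM in IR 2 and 138 CPM in IR 5 and to at most 26.7 CPM in the other tumours. The 10 skeletal muscle genes summed to 12896 CPM in IR 4 and 1888 CPM in IR 5 and to at most 279.9 CPM in the others. The part of T cells and muscle in these values was not tested. Over the 9 tumours, 0 of 36 pairs of members passed an exact permutation test within groups after adjustment, the strongest being Pdgfra with Thy1 at r = -0.92 and rho = -0.88 (adjusted p = 0.287 and 0.337, r = -0.77 without 2 tumours).

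In the microRNA experiment 3 members were tested, Foxc1, Fbln2 and Pdgfra, and 1 was called. The 3 libraries titled miR-145a-3p were set against the 2 titled scramble, and since the library names point the other way, the direction rests on the titles. Foxc1 was at 63.3 and 58.0 CPM in the libraries titled scramble and at 77.0, 71.0 and 75.0 CPM in those titled miR-145a-3p, with no overlap. It was 1.22-fold higher (log2 0.29 ± 0.068, edgeR adjusted p = 0.00712, range 2.16e-06 to 0.0664 over 11 alternatives). Of all 10751 genes tested, 28% were higher and 28.7% lower. Beside it, the 13 mitochondrially encoded genes all fell and summed to 85897 to 136138 CPM in the libraries titled scramble and 16190 to 18845 CPM in those titled miR-145a-3p, and their part in the Foxc1 value was not tested.

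Fbln2 was at 696 and 619 CPM in the libraries titled scramble and at 699, 725 and 748 CPM in those titled miR-145a-3p (log2 0.14 ± 0.071, edgeR adjusted p = 0.130). The lowest library of the second group lay just above the highest of the first, and without scramble 1 the adjusted p was 0.00412, with 1 library titled scramble that is assumed to vary like the other group. Pdgfra was at 7.80 and 5.66 CPM against 5.65, 5.61 and 5.80 CPM (log2 -0.25 ± 0.17, adjusted p = 0.241), and without scramble 2 the adjusted p was 0.0299, under the same assumption. These values from a lone library are no evidence of a difference. The other 7 members had 0 to 3 counts in each of the 5 libraries. The median log2 difference of the 3 genes was 0.14 and that of all genes tested -0.014.

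The genome neighbourhood bears on how reads were assigned. In the GENCODE vM21 annotation Ogn overlaps Cenpp on the opposite strand, and Pdgfra, Svep1 and Tbx18 overlap antisense genes. The library kit marks strand per the labels, but the sources used here do not give the strand setting of the counting, so reads of these genes and their antisense partners may not have been kept apart.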

How the data were processed

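The authors deposited expected counts per gene, from RSEM for the culture and brain tables and from salmon for the tumour and miRNA tables, per the file headers and labels. The submitters' processing notes name Trimmomatic, STAR, featureCounts, DESeq2, GRCm38 (mm10) and GRCm39 (mm39). Which build belongs to which table: not given in the sources used here. Of the culture columns, 3 fitted no sample and stayed out. IR columns of the culture and brain tables were tied to their group, and their numbers are those of the column names. The tumour table named 52133 of 55487 identifiers of the culture and brain tables.

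The members and lists were chosen with earlier results of these data known. Counts were rounded, filtered at 3 CPM in 3 libraries after the series text, scaled by TMM and fitted per experiment by edgeR 4.0.16 (quasi-likelihood, R 4.3.3), with Benjamini-Hochberg adjustment over all tested genes and calls under 0.05. The SE is the log2 change over the square root of F. The script was tested on simulated data. Pairs of members used 100000 permutations within groups, and all of them in tumours. Genes named were the members, up to 3 per list by level and up to 3 by adjusted p, the 5 most like the members (1 is not reported here), and 4 epithelial genes. Zic1, outside this rule, was chosen after its values were seen.

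Alternatives were DESeq2 1.42.0, other scalings and filters, the compared groups alone, a replicate block and each library left out. Deviations from the group mean of same-numbered control and IR tumours had correlations of 0.139, 0.760, 0.219 and 0.107 for pairs 1 to 4. The own-numbered control was the closest only for pairs 2 and 3. Control 2 and IR 2 were also the highest of their groups in lymphocyte genes, so a paired design cannot be read from these values. The replicate block changed no member call in the tumours. Control 4 of the tumours bears another number in its library name.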

Additional observations from a re-analysis of the deposited data

How the results depend on the processing

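Of 741 log2 changes of members under alternative analyses, 678 kept their sign and side of the threshold, 10 lost the call and 5 gained it. The other 48, from 14 of 48 results, changed sign, with 0 called in either analysis, and the largest of these results in size was Pdgfra in the microRNA experiment (log2 -0.25, 0.0063 under 1 alternative). In the tumours 0 members were called by edgeR and 1, Fbln2, by DESeq2. In the microRNA experiment 1 member was called, but 2 without the filter on low counts, 2 with filterByExpr, 1 to 2 with 1 library left out and 0 with the replicate block (Foxc1 adjusted p = 0.0664). The block also ended the Thy1 call in brain IS (log2 -1.23, adjusted p = 0.0543) and no other. In the experiments other than the tumours, same-numbered libraries did not all deviate together either, with correlations of -0.156 and -0.146 in the microRNA experiment.

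Over all genes, brain IR against IS gave 3 higher and 3 lower, but 112 and 222 without the filter, 274 and 330 with DESeq2, 0 and 0 with the block or with these groups alone, and 0 to 542 and 0 to 597 with 1 library left out. Tumours gave 0 and 0, but 96 and 28 with DESeq2, 1 and 0 with the block and 0 and 1 without IR 4. Brain IS gave 435 higher, but 684 with DESeq2 and 226 to 438 with 1 library left out. With 1 library left out, brain IR gave 526 to 998 higher and 310 to 805 lower against 833 and 681, and culture IR against IS 130 to 388 and 165 to 483 against 307 and 376. The microRNA experiment gave 1871 higher with the block against 3008. The cause was not tested. Lum in brain, Slc26a7 in tumours and 7 members in cultured cells were below the filter on low counts.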
